A study of Mus musculus with 6 samples.

Results

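The lymphatic endothelium of the lymph node was followed through 9 genes named as its identity factors, receptors and scavengers: Prox1, Flt4, Reln, Mmrn1, Ackr2, Itga2b, Lyve1, Stab1 and Stab2. Every probe whose platform gene symbol was among these names was taken, which gave 11 of the 25697 probes of the array, for 8 of the 9 genes. No probe used here carried the symbol Mmrn1, so the multimerin of platelets and lymphatic endothelium was not analysed here. Of the 11 probes, 9 were detected on all 6 arrays and entered the test, and they cover all 8 genes with a probe. The dimmer probes of Prox1 and Flt4 were detected on 2 and 1 of the 6 arrays and were not tested.

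Lymph enters a node through the sinus under its capsule and leaves it through the medullary sinuses, and both are lined by lymphatic endothelial cells. These cells are specified by the homeobox factor PROX1, depend on VEGF-C and VEGF-D acting through the receptor VEGFR3 (the product of Flt4), and differ between sinuses in the receptors they carry. The stabilins, encoded by Stab1 and Stab2, and LYVE1 bind or take up hyaluronan and other ligands at the surface of sinus endothelium, and STAB1 and LYVE1 are also found on some macrophages. ACKR2 is a decoy receptor that degrades inflammatory CC chemokines, reelin (Reln) is a glycoprotein secreted by lymphatic vessels, and integrin alpha IIb (Itga2b) is the platelet fibrinogen receptor chain that in mice also marks part of the node's lymphatic endothelium.

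RNA came from whole lymph nodes of mice with the genotype Rag2/pfp KO (3 arrays) and of wild-type mice (3 arrays), with no treatment named. Rag2 is needed to assemble antigen receptors, and pfp stands for perforin, with which cytotoxic cells open pores in their targets. The sources used here do not give strain, age, the node sampled or whether each array had its own animal, so p-values measure only how much these arrays vary, part of which may be technical. Illumina Mouse Ref-8 v2 bead arrays gave a signal per probe and a detection p-value against the array's negative controls, and a probe was called detected at a p-value under 0.05. Values below are signals on the linear scale of the scanner's export, or background-corrected, quantile-normalized values on the log2 scale, as named in each sentence. Differences are on the log2 scale as knockout minus wild type, tested with limma and adjusted by Benjamini-Hochberg over 14378 probes, and an adjusted p under 0.05 was called. In whole tissue, fewer cells of a type and less RNA per cell cannot be told apart.

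Lymphocyte genes were high in wild type, as the tissue label has it, and low in the knockout, and transcripts of an exocrine gland were present on 4 arrays. On the log2 scale the B cell receptor chain Cd79a read 12.47 ± 0.33 (SD, n = 3) in wild-type nodes and was not above background in the knockout, at least 101-fold lower. The T cell receptor chain Cd3e fell by 5.13 (SE 0.45) on the log2 scale (limma adjusted p = 0.0023). Of 27 tested exocrine gland genes, the mean log2 value was 11.29, 14.33 and 13.20 on knockout replicates 1, 2 and 3 and 11.72 on wild-type replicate 2, but 5.64 and 5.63 on wild-type replicates 1 and 3. The gland mean was thus high on the knockout arrays and on wild-type replicate 2. The part of the gland in the results below was not tested, and values of the lymphatic genes without that array, against it alone and with the gland mean as a covariate are given further on.

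Promoter sequences are shown for the stabilins and Itga2b, which had the largest differences between the groups, and for Reln, which did not pass the test. RefSeq's table for GRCm38.p6 held promoters for 8 of the 9 genes, and none is shown for Lyve1. Each runs 5′ to 3′ over 300 bases, from 250 before the start of the gene to 50 after it. Capitals mark GGAA, the core of ETS factor sites, read on either strand, so that TTCC is the same core on the other strand.
Stab2 promoter, chr10:87007893-87008192, minus strand: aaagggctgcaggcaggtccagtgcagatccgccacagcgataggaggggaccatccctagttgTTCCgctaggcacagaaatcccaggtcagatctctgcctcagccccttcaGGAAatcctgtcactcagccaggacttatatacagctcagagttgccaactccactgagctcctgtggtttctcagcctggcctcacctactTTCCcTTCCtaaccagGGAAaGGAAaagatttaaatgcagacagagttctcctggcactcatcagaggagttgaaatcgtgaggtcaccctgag
Stab1 promoter, chr14:31168592-31168891, minus strand: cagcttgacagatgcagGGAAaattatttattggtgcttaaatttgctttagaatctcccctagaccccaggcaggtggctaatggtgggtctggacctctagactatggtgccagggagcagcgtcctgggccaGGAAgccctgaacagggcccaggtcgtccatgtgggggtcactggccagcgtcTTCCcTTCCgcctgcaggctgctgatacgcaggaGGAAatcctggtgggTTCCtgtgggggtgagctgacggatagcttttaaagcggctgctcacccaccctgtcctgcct
Itga2b promoter, chr11:102469834-102470133, minus strand: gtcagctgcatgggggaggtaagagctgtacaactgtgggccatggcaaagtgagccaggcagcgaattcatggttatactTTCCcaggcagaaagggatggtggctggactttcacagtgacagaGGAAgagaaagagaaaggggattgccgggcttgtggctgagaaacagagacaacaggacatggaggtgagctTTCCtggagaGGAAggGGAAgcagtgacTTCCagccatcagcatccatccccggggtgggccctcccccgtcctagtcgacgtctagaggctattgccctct
Reln promoter, chr5:22344656-22344955, minus strand: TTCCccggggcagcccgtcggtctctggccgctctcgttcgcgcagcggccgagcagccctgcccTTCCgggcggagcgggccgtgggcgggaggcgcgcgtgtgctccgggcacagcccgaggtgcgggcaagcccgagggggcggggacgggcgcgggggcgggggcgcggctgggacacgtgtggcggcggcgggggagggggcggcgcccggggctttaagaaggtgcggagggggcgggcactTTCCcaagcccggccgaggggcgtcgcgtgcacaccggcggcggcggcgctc
The Stab2, Stab1 and Itga2b windows held 6 cores each and that of Reln held 3, where the median of 32851 promoters was 3. A core occurred in 96.0% of all promoters, so its presence sets no promoter apart. Both stabilin windows hold 2 cores joined as TTCCCTTCC, which begins at position -44 from the start in Stab2 and at -62 in Stab1. This string, searched on both strands after these sequences had been seen, occurs in 343 of the 32851 promoters (1.04%) and in none of the windows of the other 6 genes. The SOX-type strings ACAAAG and ACAATG (18.7% and 12.6% of all promoters) and the GATA-type string AGATAA (11.2%), the last chosen after the values were seen, were in none of the 4 windows shown. The Reln window was 80.7% G and C, against 53.0% in Stab2, 57.3% in Stab1 and 56.0% in Itga2b. A match in these letters is no evidence of binding.

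Among the scavenger genes, Stab2 was the clearest difference. Its signal was 4521, 2570 and 3487 on the knockout arrays and 1717, 991 and 2639 on the wild-type arrays, in the order of replicates 1, 2 and 3. On the normalized log2 scale this became 12.09, 11.57 and 11.83 in the knockout and 10.53, 9.67 and 11.13 in wild type. All 3 knockout arrays thus lay above all 3 wild-type arrays after normalization, whereas the unnormalized signals overlapped, with knockout replicate 2 below wild-type replicate 3. Stab2 rose by 1.39 (SE 0.38) on the log2 scale, a 2.62-fold difference with a 95% interval of 0.47 to 2.31 (limma adjusted p = 0.039).

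Stab1, the related receptor that macrophages share, read 10.26, 9.77 and 10.22 on the log2 scale in the knockout and 9.07, 8.20 and 9.70 in wild type, from signals of 1276, 778 and 1212 and of 710.1, 443 and 1054. Its normalized groups did not overlap either, though the gap between knockout replicate 2 and wild-type replicate 3 was small. The log2 difference was 1.10 (SE 0.39, 95% interval 0.16 to 2.04), and with a limma adjusted p of 0.079 it did not pass the test.

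Lyve1, the hyaluronan receptor used to stain lymphatic vessels, did not pass the test, and its groups overlapped. It read 11.001, 10.85 and 11.63 on the log2 scale in the knockout and 11.39, 10.61 and 12.44 in wild type, from signals of 2124, 1570.2 and 3064 and of 3022, 1754 and 6329. The 2 ends of this range were both wild type, so the knockout arrays lay inside the wild-type spread. The log2 difference was -0.32 (SE 0.48, limma adjusted p = 0.62), with a wide 95% interval of -1.48 to 0.84.

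Prox1, the factor that sets lymphatic identity, was measured by a brighter and a dimmer probe. The brighter read 8.54, 7.95 and 8.54 on the log2 scale in the knockout and 7.76, 6.77 and 8.02 in wild type, from signals of 438, 275 and 431 and of 367, 239.6 and 408. Only wild-type replicate 3 reached into the knockout range, just above knockout replicate 2. The log2 difference was 0.83 (SE 0.37, 95% interval -0.053 to 1.71, limma adjusted p = 0.13), so Prox1 did not pass the test. The dimmer probe, near the background with signals of 109.8 to 142 in the knockout and 139.7 to 181 in wild type, was detected on knockout replicates 1 and 3 and on no other array. Its log2 values were 5.79 ± 0.39 (SD, n = 3) in the knockout and 5.32 ± 0.29 in wild type. These means differ in the direction of the brighter probe, but the groups overlapped. With no filter on dim probes the log2 difference was 0.46 (limma adjusted p = 0.25).

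The VEGFR3 gene Flt4 was dim on this array. Its brighter probe gave signals of 152, 148 and 177 in the knockout and 222, 179 and 243 in wild type, with detection p-values of at most 0.026. The log2 values were 6.30, 6.42 and 6.70 in the knockout and 6.32, 5.83 and 6.76 in wild type. The groups overlapped fully, with a log2 difference of 0.17 (SE 0.27, 95% interval -0.47 to 0.81, limma adjusted p = 0.64). The dimmer probe passed the detection threshold on wild-type replicate 3 alone.

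Reln and Ackr2, both products of lymphatic vessels, were bright and did not pass the test. Reln read 10.98, 10.94 and 11.24 on the log2 scale in the knockout and 11.58, 10.61 and 12.08 in wild type, from signals of 2097, 1670.5 and 2354 and of 3372, 1756 and 4953. The knockout arrays lay close together, between wild-type replicates 1 and 2. The log2 difference was -0.37 (SE 0.37, 95% interval -1.27 to 0.53, limma adjusted p = 0.47). Ackr2 read 10.00, 9.50 and 10.96 in the knockout and 10.50, 9.34 and 10.70 in wild type on the log2 scale, from signals of 1082, 653 and 1971 and of 1696, 821 and 2017. Both groups spread over more than a log2 unit and their means nearly coincided, with a log2 difference of -0.024 (SE 0.50, 95% interval -1.22 to 1.17, limma adjusted p = 0.98).

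Itga2b was the other gene that rose, and its 2 probes gave the same picture. The brighter read 10.81, 10.65 and 10.38 on the log2 scale in the knockout and 9.62, 8.64 and 9.93 in wild type, from signals of 1867, 1383 and 1337 and of 986, 552 and 1226. The dimmer read 8.76, 9.05 and 8.45 in the knockout and 7.65, 7.08 and 8.09 in wild type on the log2 scale, from signals of 498, 501 and 411 and of 352, 270.1 and 423. After normalization each knockout array lay above each wild-type array on both probes. The unnormalized signals of the dimmer probe overlapped, with knockout replicate 3 (411) below wild-type replicate 3 (423). The brighter probe rose by 1.22 (SE 0.35, limma adjusted p = 0.045) on the log2 scale, a 2.32-fold difference, and the dimmer by 1.15 (SE 0.30, limma adjusted p = 0.034), or 2.21-fold.

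**Figure D1:**
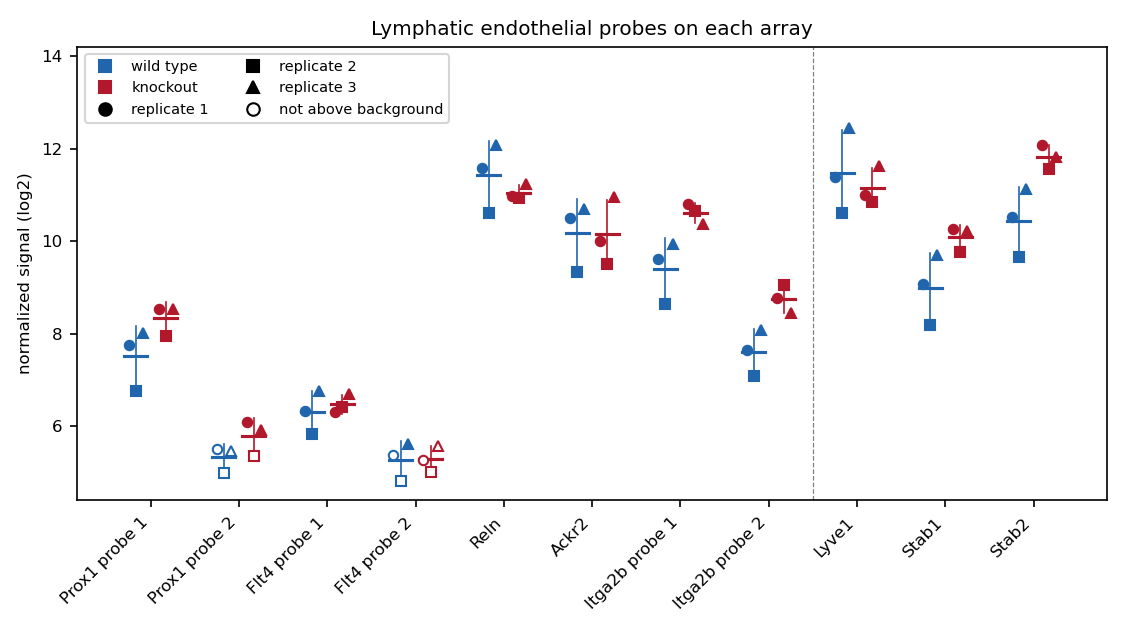
Normalized log2 signal (vertical axis) of the 11 probes (horizontal axis) on each array, wild type in blue and knockout in red, with a marker shape per replicate, bars for the mean and the SD, and open markers where the probe was not above background; the dashed line separates the scavenger genes on the right. Stab1, Stab2 and both Itga2b probes have all 3 knockout arrays above all 3 wild-type arrays, while Reln, Ackr2, Flt4 and Lyve1 overlap.

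Read over all 8 genes with a tested probe, 2 rose and 0 fell, where 10.2% of the 9973 genes tested rose and 17.3% fell. At the level of probes, 3 of the 9 tested rose against 10.1% of all 14378, of which 28.6% passed in either direction. The groups did not overlap on 4 of the 9 probes, each time with the knockout higher, which was so for 21.0% of all probes tested, and for 48.2% in either direction. Taking the brightest tested probe of each gene, the median log2 difference of the 8 genes was 0.50, against 0.033 over all genes. With 8 genes chosen when results were known, these counts describe the list and carry no test.

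**Figure D2:**
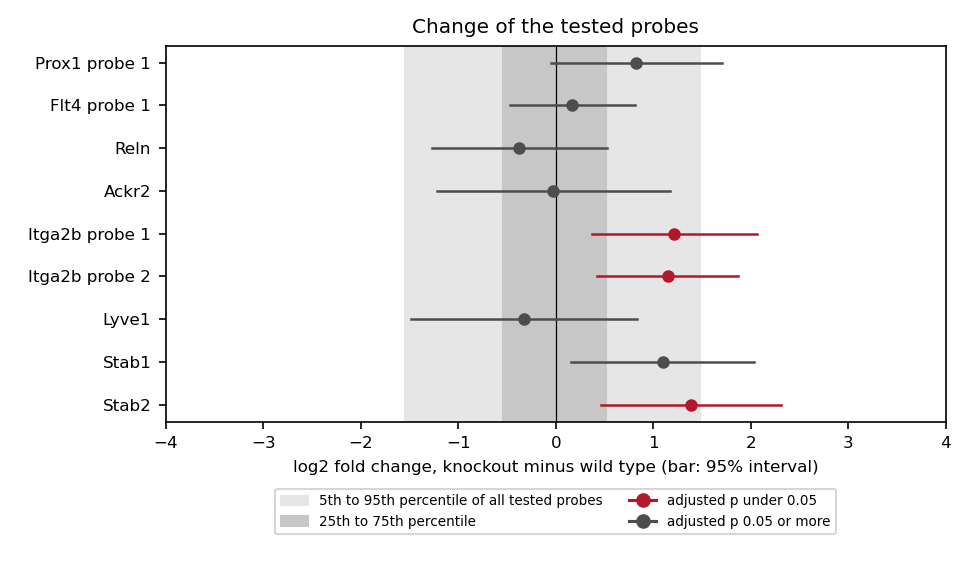
Log2 fold change of the 9 tested probes (horizontal axis, knockout minus wild type) with its 95% interval, in red where the adjusted p was under 0.05, over grey bands for the 5th to 95th and the 25th to 75th percentile of all 14378 tested probes. Stab2, Stab1 and the Itga2b probes lie to the right of 1 with intervals above 0, Stab1 without a call. The intervals of Prox1, Flt4, Lyve1, Reln and Ackr2 cover 0.

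The split between genes did not follow the division into scavengers on one side and identity factors and receptors on the other. Relative to the wild-type mean of each gene, the scavengers Stab1, Stab2 and Lyve1 averaged 0.81, 0.42 and 0.92 on the log2 scale on knockout replicates 1, 2 and 3. The 5 identity and receptor genes averaged 0.36, 0.13 and 0.60 on the same arrays. Within the scavengers the gene means ran from -0.32 for Lyve1 to 1.39 for Stab2, and within the others from -0.37 for Reln to 1.22 for Itga2b. Each class thus held a gene that rose and a gene with a negative difference, and the spread inside a class was wider than the distance between the classes.

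The wild-type arrays differed from each other in the same order for every tested probe. Wild-type replicate 2 was the lowest wild-type array on 9 of 9 probes, which held for 52.3% of all probes tested, and wild-type replicate 3 the highest on 9 of 9, which held for 32.1%. From replicate 2 to replicate 3 the log2 distance was 1.83 for Lyve1, 1.47 for Reln and 1.46 for Stab2, and 0.92 for the dim Flt4 probe, against a median of 0.14 over all tested probes. For Stab2 this distance within wild type was as large as the difference between the genotypes. Replicate 2 was also the wild-type array with gland transcripts, as given above. The knockout arrays were closer together, with log2 ranges of 0.30 for Reln and 0.52 for Stab2, although Ackr2 spread over 1.46.

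Because the genes shared this spread, each was also set against Lyve1 on the same array, as the log2 value minus that of Lyve1 and minus the wild-type mean of that distance. Stab2 gained 2.13, 1.76 and 1.24 on Lyve1 on knockout replicates 1, 2 and 3, whereas the wild-type arrays lay between -0.27 and 0.17. Stab1 gained 1.75, 1.42 and 1.09, the brighter Itga2b probe 1.90, 1.89 and 0.83 and Prox1 1.51, 1.07 and 0.88. On these genes no knockout array overlapped a wild-type array. With both Itga2b probes, 5 of 8 probes were higher than Lyve1 in this sense without overlap, which held for 6.71% of all other probes tested. That share is not a like measure for these genes, which have the wild-type order of Lyve1. Lyve1 spanned 1.83 in wild type, and subtracting it adds this spread to probes without that order. Before subtraction the share was 21.0%. Reln kept with Lyve1, at 0.042, 0.15 and -0.34 in the knockout and -0.30 to 0.24 in wild type, and Ackr2 and Flt4 overlapped too. The choice of Lyve1 as the reference was made after its values were seen, and no p is given.

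**Figure D3:**
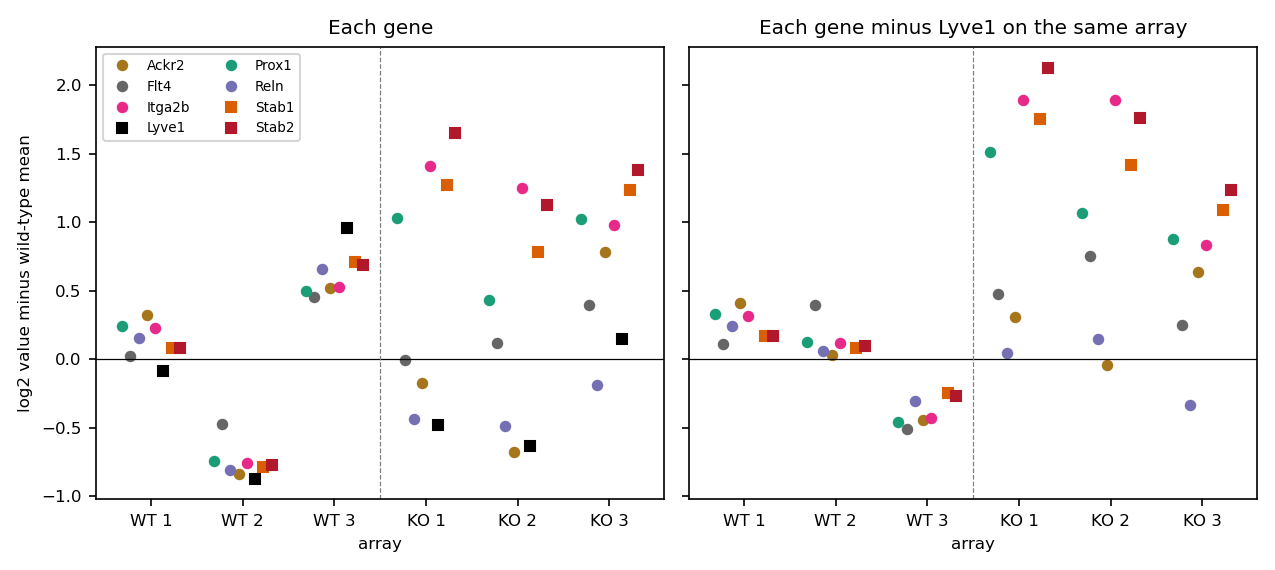
Log2 value of each gene on each array (horizontal axis, wild type WT and knockout KO) minus the gene's wild-type mean on the left, and the same after subtracting Lyve1 on the right, with squares for scavenger genes and the brightest probe of each gene. On the left all genes drop on WT 2. On the right the wild-type arrays draw together for the genes other than Flt4, and Stab2, Itga2b, Stab1 and Prox1 stand above them on every KO array.

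The sign of several genes depended on the wild-type arrays compared. Against wild-type replicate 2 alone all 9 probes were higher in the knockout, with log2 differences of 2.16 for Stab2, 1.97 and 1.67 for the Itga2b probes, 1.89 for Stab1, 1.57 for Prox1, 0.82 for Ackr2, 0.64 for Flt4, 0.55 for Lyve1 and 0.44 for Reln. Without that array the log2 differences were 1.00 for Stab2, 0.84 and 0.88 for Itga2b, 0.70 for Stab1, 0.45 for Prox1, -0.067 for Flt4, -0.44 for Ackr2, -0.76 for Lyve1 and -0.78 for Reln. In that comparison Reln passed the test as lower (limma adjusted p = 0.029) and Stab2 and both Itga2b probes passed as higher. With the mean of the gland genes as a covariate, Stab2 (2.37), Itga2b (2.10 and 1.66), Stab1 (2.08) and Prox1 (1.79) were all called higher on the log2 scale. The gland mean was high on every knockout array and, in wild type, on replicate 2 alone. The covariate fit and the comparison with replicate 2 alone therefore both lean on that array and are not independent. The higher level of Stab2, Itga2b, Stab1 and Prox1 had the same sign in each of these comparisons, and the sign of Lyve1, Reln, Ackr2 and Flt4 did not.

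The calls lay near the threshold and were lost in several fits with 1 array left out, even where the log2 difference hardly moved. Without knockout replicate 3 the difference of Stab2 was 1.39, as with all arrays, at a limma adjusted p of 0.108. Stab2 and both Itga2b probes lost their call when wild-type replicate 1 or any of the knockout arrays was left out, with limma adjusted p up to 0.108 for Stab2 and 0.119 for Itga2b. The smallest log2 difference with 1 array left out was 1.00 for Stab2, 0.84 and 0.88 for the Itga2b probes, 0.70 for Stab1 and 0.45 for Prox1. Without wild-type replicate 3, Stab1 was called as well, at 1.45 (limma adjusted p = 0.046).

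**Figure D4:**
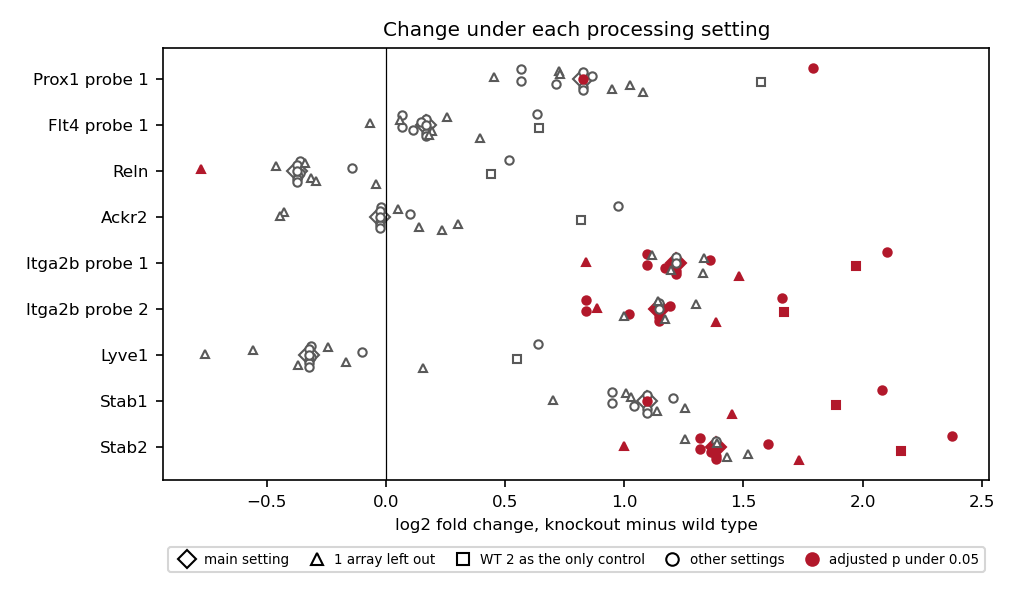
Log2 fold change of each tested probe (horizontal axis, knockout minus wild type) in the main setting (diamonds) and 16 alternatives, namely 1 array left out (triangles), wild-type replicate 2 as the only control (squares) and other settings (circles), filled red where the adjusted p was under 0.05. Itga2b, Prox1, Stab1 and Stab2 stay to the right of 0 throughout, whereas Flt4, Reln, Ackr2 and Lyve1 fall on both sides.

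Other genes of lymphatic growth and identity were mostly without a call. Of 34 listed genes 30 were on the array and 23 were tested, of which 2 rose and 1 fell, with a median log2 difference of 0.24. Over all genes tested, 10.2% rose and 17.3% fell, and the counts of this and the next lists are to be read against those shares. Ephb4, a receptor for ephrin-B2 that lymphatic valves need, read 8.58 ± 0.06 (SD, n = 3) in the knockout and 7.23 ± 0.25 in wild type and rose 2.54-fold (limma adjusted p = 0.0048), a call kept with any 1 array left out. Gata2, a factor of lymphatic valves that mast cells also use, rose by 0.96 (SE 0.24, limma adjusted p = 0.029) on the log2 scale. Its call was lost when wild-type replicate 3 or any of the knockout arrays was left out, and 2 of 8 tested mast cell and basophil genes rose, Gata2 among them. Pik3ca, the catalytic subunit of a kinase below VEGFR3 and many other receptors, fell by 1.23 (SE 0.20, limma adjusted p = 0.0082).

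The ligands of VEGFR3 lay on opposite sides of 0, and neither passed the test. Vegfd had a log2 difference of 1.23 (SE 0.42, limma adjusted p = 0.071) and Vegfc of -0.49 (SE 0.25, limma adjusted p = 0.18). The endothelial receptor Tie1 (1.15, adjusted p = 0.055), the platelet receptor for podoplanin Clec1b (1.26, adjusted p = 0.055) and the vessel lumen regulator Rasip1 (1.03, adjusted p = 0.061) missed the threshold narrowly in limma. Podoplanin itself (Pdpn, 0.19), the PROX1 partner Nr2f2 (-0.26), the PROX1 inducer Sox18 (0.52) and the connexin Gja1 (-0.22) had smaller log2 differences, and the lowest of their limma adjusted p was 0.296. The valve factor Foxc2, the VEGF-C co-receptor Nrp2 and the VEGF-C processing genes Ccbe1 and Adamts3 were not above background on any array. The groups did not overlap on 6 of these genes with the knockout higher and on 2 with it lower, of 23, against 21.0% and 27.3% of all probes.

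Markers of single sinuses and the products that sinus endothelium gives to other cells were also mostly without a call. Of 31 listed genes, 27 were on the array and 23 were tested, of which 2 rose and 2 fell, against 10.2% and 17.3% of all genes, with a median log2 difference of 0.36. The growth factor Bmp4 rose 2.02-fold (limma adjusted p = 0.027), a call that leaving out replicate 1 or 3 of the knockout, or replicate 3 of wild type, ended (up to 0.093), and the sphingosine kinase Sphk2 1.54-fold (limma adjusted p = 0.020), with a call in 1 of the 6 fits that leave out an array (adjusted p up to 0.077). Nt5e, the ectoenzyme CD73 that lymphocytes carry too, fell by 1.38 (SE 0.25, limma adjusted p = 0.011), and its second probe fell by 1.75. Glycam1, a mucin best known from high endothelial venules, fell by 1.95 (SE 0.32, limma adjusted p = 0.0089). Both falls were called with any 1 array left out, but not against wild-type replicate 2 alone (adjusted p of 0.065 for Nt5e and 0.089 for Glycam1) or with the gland covariate (0.065 and 0.059). Against that array alone Bmp4 (adjusted p = 0.077) and Sphk2 (0.13) were not called either, nor was Sphk2 with the covariate (0.083). The chemokine-scavenging receptor Ackr4 of the sinus ceiling (-0.85), the lectin Clec4g (0.29), the checkpoint ligand Cd274 (0.46), the addressin Madcam1 (0.13) and the CCR7 ligand gene Ccl21a (-0.19) had limma adjusted p of 0.11 to 0.88. The Ccl21a value is uncertain, since Ccl21b is almost the same in sequence and may share the probe.

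Genes of blood vessels and of endothelium as a whole were counted as well, in 1 list. Of 19 tested, 3 rose and 2 fell, against 10.2% and 17.3% of all genes, with a median log2 difference of 0.53. The groups did not overlap on 7 of the 19 with the knockout higher and on 2 with it lower. Over all probes these shares were 21.0% and 27.3%. The TGF-beta co-receptor Eng (1.23), Mmrn2, a relative of the unmeasured Mmrn1 (1.14), and Vwf, which megakaryocytes also make (1.86), rose by those log2 differences (limma, adjusted p of 0.036, 0.044 and 0.044). All 3 lost the call when wild-type replicate 1 or any of the knockout arrays was left out, and Mmrn2 and Vwf also when wild-type replicate 3 was. Vwf read 10.29, 12.01 and 10.42 in wild type in log2, high on the array with gland transcripts, and its difference was 0.76 against that array alone (limma adjusted p = 0.34) and 0.66 with the gland covariate (adjusted p = 0.42). The ETS factors Ets1 and Fli1, which lymphocytes express strongly, differed by -1.87 and -2.63 in log2, both called lower, though not against wild-type replicate 2 alone (adjusted p of 0.059 and 0.058). Pecam1 (0.43) and Cdh5 (0.81), which mark endothelium as a whole, did not pass the test, with limma adjusted p of 0.26 and 0.098. These 2 log2 differences lie between those of Lyve1 and Stab2. A second, dimmer Pecam1 probe had a log2 difference of 0.66 (SE 0.21, limma adjusted p = 0.062) and did not pass either. The groups of that probe and of Cdh5 did not overlap, with the knockout higher, whereas those of the brighter Pecam1 probe overlapped.

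Some macrophage genes were called higher in the knockout and most were not called. The groups did not overlap on 8 of 15 tested macrophage genes with the knockout higher and on 1 with it lower. Over all probes these shares were 21.0% and 27.3%. Of 15 tested, 4 rose and 1 fell, against 10.2% and 17.3% of all genes, with a median log2 difference of 0.99, and the summed level of the list was 65396 to 80083 in the knockout and 24415 to 66317 in wild type on the linear normalized scale. C1qa rose 3.77-fold, Cd163 3.19-fold, Marco 2.31-fold and Cd14 2.29-fold, while Timd4 fell by 1.36 in log2 (limma, adjusted p of 0.0095 to 0.042). None of the 4 rises was called when wild-type replicate 1 or any of the knockout arrays was left out, whereas Timd4 was called in all 6 such fits. Against wild-type replicate 2 alone, Cd163 (adjusted p = 0.074) and Timd4 (0.058) were not called, nor were Cd163 (0.13), Cd14 (0.054) and Timd4 (0.057) with the gland covariate. No probe used here was named Cd68 or Csf1r. Siglec1 (0.99) and Mrc1 (0.82), both of which sinus macrophages carry and Mrc1 also lymphatic endothelium, did not pass the test, with limma adjusted p of 0.099 and 0.18. The summed level was lowest on wild-type replicate 2 and highest, among wild-type arrays, on replicate 3, as for the lymphatic genes. The part of macrophages in the Stab1 and Stab2 values was not tested.

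Because Itga2b is also a platelet gene, other platelet genes are given beside it. Of 11 tested platelet and megakaryocyte genes 1 rose and 3 fell, against 10.2% and 17.3% of all genes, with a median log2 difference of -0.46 and a summed level of 2878 to 3992 in the knockout and 2944 to 8486 in wild type on the linear normalized scale. The platelet chemokine Pf4 fell by 1.34 (SE 0.24, limma adjusted p = 0.011), a call kept with any 1 array left out. It was not called against wild-type replicate 2 alone (adjusted p = 0.084) or with the gland covariate (0.071), where 1 and 0 genes of the list were lower. Plek fell by 1.73 and P2ry12, not above background in the knockout, was at least 1.68-fold lower, while the adhesion protein Thbs1 rose by 1.37 in log2. Leaving out replicate 2 or 3 of the knockout, or replicate 1 or 3 of wild type, ended the calls of Plek and P2ry12. Itgb3, the beta chain that pairs with integrin alpha IIb on platelets, was not above background on any array, and Gp9 was detected on 1 of 6. Itga2b was detected on all 6 arrays by both probes, as were 6 of the 11 tested genes of the list, Clec1b, Pf4 and Plek among them. Clec1b had a log2 difference of 1.26 with no overlap between the groups, as given above, and the part of platelets in the Itga2b values was not tested. Among the remaining tissue lists, 7 of 22 tested fibroblast and reticular genes rose and 2 fell (median log2 difference 0.27), and 5 of 16 adipocyte genes rose and 1 fell (median 0.74), again against 10.2% and 17.3% of all genes.

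**Figure D5:**
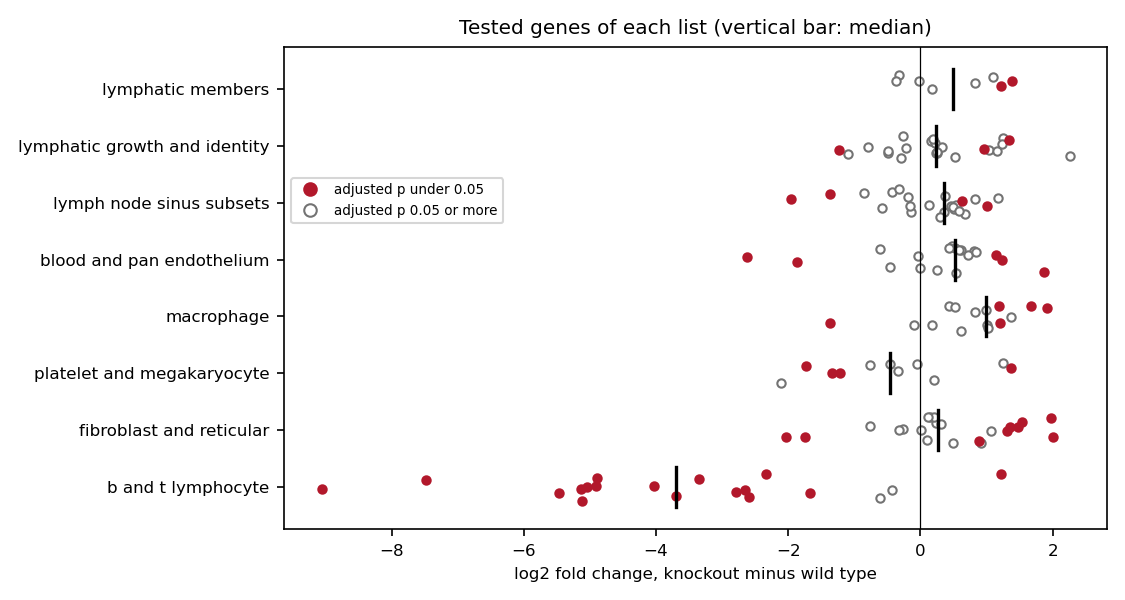
Log2 fold change (horizontal axis, knockout minus wild type) of each tested gene in the lymphatic genes and 7 comparison lists (rows), filled red where the adjusted p was under 0.05, with a vertical bar at the median. The lymphatic genes spread from -0.37 to 1.39 around a median of 0.50, the macrophage list has a median of 0.99, and the B and T lymphocyte list lies almost wholly to the left of 0, with 16 of 19 genes called lower.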

How the data were processed

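RNA of whole lymph nodes was measured on bead arrays after amplification and labelling, per the labels' protocols. The deposited non-normalized table gives the signal intensity of each probe on a linear scale with a detection p-value, and the submitters' processing notes name GenomeStudio 2011.1. A second deposited table holds the authors' log2 values, which by comparison equal quantile-normalized log2 intensities with no background correction, and it served as an alternative.

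Background was removed from the intensities of 25697 probes with normexp, using the detection p-values, an offset of 16 was added, and arrays were quantile-normalized before log2 (neqc, limma 3.58.1, R 4.3.3). Probes detected (p under 0.05) on at least 3 arrays were tested (14378) with lmFit and eBayes, two-sided, with Benjamini-Hochberg adjustment over them all; the offset shrinks changes of dim probes. The fit was tested on simulated data. Between 51.3% and 56.3% of probes were detected per array, and 3 arrays per group limit the precision. A fold against a group below background is a bound: each of its arrays counts as the probe's own value or the lowest detected value, whichever is higher. A gene of a list was represented by its brightest tested probe.

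Names come from the platform annotation (23978 probes with 1 symbol, 1719 with none), updated through a RefSeq table of GRCm38.p6, which changed 0. The 9 genes and the other lists were chosen with earlier results of these data known. The text names all 9 genes, any detected gene of the 2 lymphatic lists, and from other lists up to 3 called genes in each direction and fixed defining markers. Cd14 and the genes named as not above background or without a probe fall outside this rule and were chosen after their values were seen. The sources used here give no chip positions, so a chip effect was not tested. Before normalization the median signal was 134 to 144 on knockout arrays and 191 to 207 on wild-type arrays. The alternatives were other backgrounds, offsets, scalings and filters, a variance trend, a replicate block, a gland covariate, a single control array and leaving out each array.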

Additional observations from a re-analysis of the deposited data

How the results depend on the processing

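The number of called probes was 4119 of 14378, and 1805 to 6298 with 1 array left out, highest without wild-type replicate 2; it was 950 against that array alone. Of the lymphatic genes, 2 were higher and 0 lower. With 1 array left out 0 to 3 were higher and 0 or 1 lower, and 0 were higher with no filter on dim probes and 4 with the gland covariate, which was 11.3 to 14.3 on the knockout arrays and differed among wild-type arrays mainly on 1. The growth and identity list (2 higher, 1 lower) had 4 higher with no background correction, with the authors' deposited values, with an offset of 50 and with median scaling, 9 with the gland covariate, 5 against wild-type replicate 2 alone and 1 to 6 with 1 array left out, where 1 to 3 were lower. The sinus list (2 and 2) had 5 higher and 0 lower with the covariate, 0 lower against wild-type replicate 2 alone, and 0 to 3 higher and 2 to 3 lower with 1 array left out. Counts of the other lists stayed within 1.5 times in 181 of 256 comparisons. Median scaling moved the median of all probes to 0.14 on the log2 scale and the share of higher calls from 35.3% to 49.1% (50.1% with the covariate).

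The sign of 4 uncalled probes turned. Ackr2 (-0.024, and -0.44 to 0.30 with 1 array left out) became 0.10 with median scaling, 0.97 with the covariate, 0.82 against wild-type replicate 2 alone, and 0.052, 0.30, 0.14 and 0.24 on leaving out knockout replicates 1 and 2 and wild-type replicates 1 and 3. Lyve1 became 0.64 with the covariate and 0.55 against wild-type replicate 2, and ran from -0.76 to 0.16 with 1 array left out. Reln became 0.51 with the covariate and 0.44 against wild-type replicate 2, and Flt4 ran from -0.067 (without that array) to 0.40 with 1 array left out. The cause of these turns was not tested. Stab2 and the 2 Itga2b probes missed the threshold with no filter on dim probes (limma adjusted p of 0.062, 0.069 and 0.050317), where more probes are adjusted for. Deviations of equally numbered arrays correlated at 0.49, 0.32 and -0.31. With 3 arrays per group these values cannot show whether the numbers pair the arrays, and the sources used here do not say. With a replicate block 4685 probes were called, Stab1 and Prox1 passed (limma adjusted p of 0.035 and 0.036), both Itga2b probes did not (0.053 and 0.064), and the growth and identity list had 5 higher and 3 lower.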
